A study of Homo sapiens and Mus musculus with 12 samples.

Results

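SPDEF and GATA6 are transcription factors, and the binding lists of these cells can be read at the factors' own genes for self-binding (a factor at its own gene) and cross-binding (a factor at the other's gene). The peaks considered here are those whose nearest edge lies within 200 kb of SPDEF (hg19 chromosome 6, 34505 to 34525 kb) or GATA6 (hg19 chromosome 18, 19749 to 19783 kb), and, in mouse, of Spdef (mm10 chromosome 17, 27714 to 27730 kb). Gene edges were given in whole kb, so every distance to a gene is good to about 1 kb. By this rule 7 peaks of 19164 in the 3 lists were members. They were 4 GATA6 peaks, 3 mouse Spdef peaks and 0 human SPDEF peaks.

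The lists come from CUT&RUN, in which an antibody guides a nuclease to the chromatin it binds and the released fragments are sequenced. The human cells were HPAF-II, an established pancreatic ductal adenocarcinoma line, and all 8 of its libraries were made from cells carrying HA-tagged human SPDEF: 3 with an HA antibody, 3 with a GATA6 antibody, 1 with IgG and 1 with an H3K4me3 antibody. The mouse cells were FC1245, a pancreatic ductal adenocarcinoma line of strain C57/Bl6 that carries Pdx1-Cre, into which mouse Spdef with an HA tag had been brought. From it came 3 libraries with the HA antibody and 1 with IgG. Pdx1-Cre is a Cre recombinase under the Pdx1 promoter, which is active in the developing pancreas. The labels do not say how strongly the tagged factors were expressed or whether a line was a single clone. The HA antibody reads the tagged factor alone, and no list describes cells without it. Each target has 1 list with no score and no replicate values, so no value below has a replicate error, and the depth behind the lists is unknown. The human SPDEF list held 2775 peaks (0.912 per Mb over the autosomes and X), the GATA6 list 10670 (3.51 per Mb) and the mouse Spdef list 5719 (2.17 per Mb).

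SPDEF is an ETS-family factor of mucus-secreting and luminal epithelia, and its DNA-binding domain prefers a GGAT core where most ETS factors prefer GGAA. GATA6 is a zinc-finger factor of endoderm that binds GATA-containing sites and marks the classical subtype of pancreatic cancer. Factors that define a cell type often bind regulatory DNA at their own genes and at those of their partners, which is why these loci are looked at together.

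The start of SPDEF is shown because neither human list placed a peak within 100 kb of the gene. The sequence below is the RefSeq promoter of SPDEF, from 250 bases before to 50 after the gene's start (GRCh38.p14, chr6:34556280-34556579, minus strand). Its build differs from that of the peaks, so its position is not to be set against theirs. Capitals mark GGAT, the core that SPDEF prefers, on either strand.
SPDEF promoter: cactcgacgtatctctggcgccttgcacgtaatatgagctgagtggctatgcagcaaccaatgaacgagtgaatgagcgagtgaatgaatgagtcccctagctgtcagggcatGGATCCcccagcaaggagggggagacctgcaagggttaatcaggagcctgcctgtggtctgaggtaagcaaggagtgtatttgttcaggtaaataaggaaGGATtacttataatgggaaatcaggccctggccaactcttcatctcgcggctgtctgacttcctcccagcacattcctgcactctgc

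The promoter held 3 matches to GGAT, at -137, -135 and -37 relative to the start, the first and second of which overlap on opposite strands. GGAT on either strand was found in 76.5% of the 35116 RefSeq promoters of this length. The common ETS core GGAA had 4 matches, a motif found in 95.5% of promoters. GATAA, a longer word than the GATA core, had 0 matches, and 22.7% of promoters held it. The shorter GATA was not counted, though the printed sequence holds it on its opposite strand. The GATA6 promoter of the same table had 1 match to GGAT, 2 to GGAA and 0 to GATAA. Such short words occur in many promoters, and a match is a description of the letters and not a binding site.

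At its own gene, human SPDEF had no peak. Within 200 kb of SPDEF the SPDEF list held 0 peaks, where the length of the window (420 kb) and the list's density give 0.383. The ratio of observed to expected was thus 0, and a count of 0 (an upper limit of 3 counts) allows up to 7.83 times the density of the list, or 18 times that of the list on chromosome 6. The exact 95% Poisson interval of the ratio ran from 0 to 9.63. It reaches higher because it allows for error on both sides, where the limit of 3 counts allows for the upper side alone. Of all 420 kb windows along the genome, taken every 10 kb outside centromere bands, 78.9% also held 0 SPDEF peaks. With a list this short, an empty window is the usual case, and a site that did not reach the list cannot be told apart from an unbound one.

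The nearest SPDEF peak lay 292.7 kb from the gene, on its downstream side (chromosome 6, 34212124 to 34212332, 209 bp). SPDEF is read from the minus strand, so downstream is towards lower positions. A peak as near or nearer was found for 27.2% of 20 kb spans along the genome and for 16.9% of those on chromosome 6. The gene lay in a stretch of 2349 kb between successive SPDEF peaks, which ends at 36561603 on the upstream side. On chromosome 6, which held 68 SPDEF peaks, the median stretch between successive peaks was 711 kb, and 18 of 67 stretches were as long or longer.

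GATA6 had 2 peaks within 200 kb of SPDEF, both more than 100 kb from the gene. The nearer lay 144.1 kb downstream (chromosome 6, 34360649 to 34360895, 247 bp). The other lay 188.4 kb upstream (34713401 to 34713622, 222 bp). The gene itself and 100 kb on each side held 0 GATA6 peaks, against 0.773 given by the density. The density gives 1.48 peaks for the 420 kb window, so the ratio was 1.36 (exact 95% Poisson interval 0.164 to 4.90), and 33.0% of genome windows of that length held as many or more. A GATA6 peak as near as 144.1 kb was found for 43.2% of 20 kb spans along the genome. These counts are near the background of the list. The closest peaks outside the distance lay at 254.0 kb upstream for GATA6 and, for SPDEF, the peak at 292.7 kb.

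**Figure D1:**
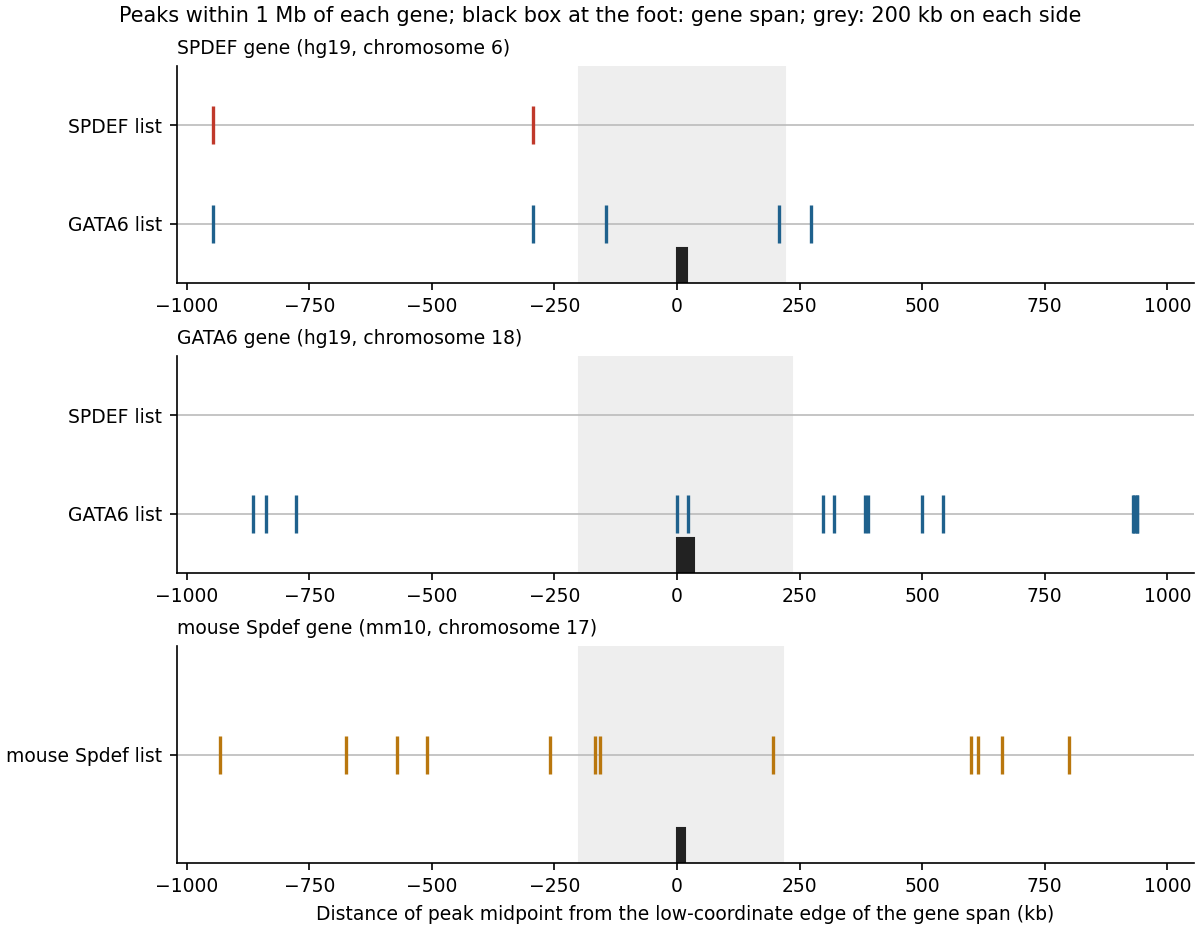
Peaks of each list (ticks) within 1 Mb of SPDEF, GATA6 and mouse Spdef, by the distance of the peak's midpoint from the low-coordinate edge of the gene (kb), with the gene as a black box and 200 kb on each side in grey. Within the grey zones there are 2 GATA6 peaks around SPDEF, 2 GATA6 peaks in GATA6 and 3 mouse Spdef peaks around Spdef, and 0 human SPDEF peaks.

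Since the SPDEF list held 0 peaks in either zone, none of the 4 GATA6 peaks there could overlap one. Around SPDEF, the distance to the nearest SPDEF peak was 148.3 kb for the downstream GATA6 peak and 501.1 kb for the upstream peak. The median over the whole GATA6 list was 166.2 kb. In gene order in RefSeq, SPDEF lies between PACSIN1, which follows RPS10, and ILRUN, which precedes SNRPC. PACSIN1 acts in endocytosis and RPS10 is a ribosomal protein. Peaks were not assigned to these genes, since the gene table is of another build.

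Farther out, peaks of both lists overlapped at 2 places on the downstream side of SPDEF. Both SPDEF peaks within 1 Mb of the gene overlapped a GATA6 peak (2 of 2, against 1796 of 2775, or 64.7%, in the whole SPDEF list). With only 2 peaks, this cannot be told apart from the share in the whole list. At 292.7 kb the peaks of both lists began at the same base (34212124), and the GATA6 peak of 170 bp lay wholly within the SPDEF peak of 209 bp. At 947 kb the SPDEF peak (33557807 to 33558051, 245 bp) shared 187 bp with a GATA6 peak (33557865 to 33558095, 231 bp). In all, 2 SPDEF peaks and 5 GATA6 peaks lay within 1 Mb of SPDEF. Of genome windows of this length (2020 kb), 35.3% held as many SPDEF peaks or more and 56.8% as many GATA6 peaks or more. All 5 GATA6 peaks and both SPDEF peaks were narrower than the median of their list.

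GATA6 was the only one of the 3 genes with a peak inside its span in the lists used here, and both peaks there came from its own factor's list. Mouse Spdef was read with the mouse Spdef list alone. The first peak lay at the gene's 5' end (chromosome 18, 19749584 to 19749838, 255 bp), beginning 0.584 kb past the edge given for the start of the gene. The second lay 21.7 kb into the gene (19770734 to 19771133, 400 bp), 20.9 kb from the first. Whether they fall in exons or introns was not assessed, as no annotation of hg19 was used. These were the only GATA6 peaks within 200 kb of the gene. The next lay 263.2 kb downstream.

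Set against the genome, 8.85% of spans of GATA6's length (34 kb) touched at least 1 GATA6 peak and 2.40% touched 2 or more. A window of 2 kb, as wide as 1 kb on each side of the gene's 5' edge, held a GATA6 peak at 0.827% of places. The 2.40% and 0.827% were added after the peaks were seen, so they are no support for self-binding. Over the 434 kb window the count was near the background: 2 peaks against 1.52 given by the density (ratio 1.31, exact 95% Poisson interval 0.159 to 4.74), a number that 33.9% of genome windows reached. Within 50 kb of the gene the ratio was 4.25 (exact 95% Poisson interval 0.515 to 15.4), still with 1 inside its interval. These shares count windows over the whole genome. Windows at gene starts were not counted separately, and no control list stands beside them, so they do not show how often a gene of this kind carries a GATA6 peak.

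**Figure D2:**
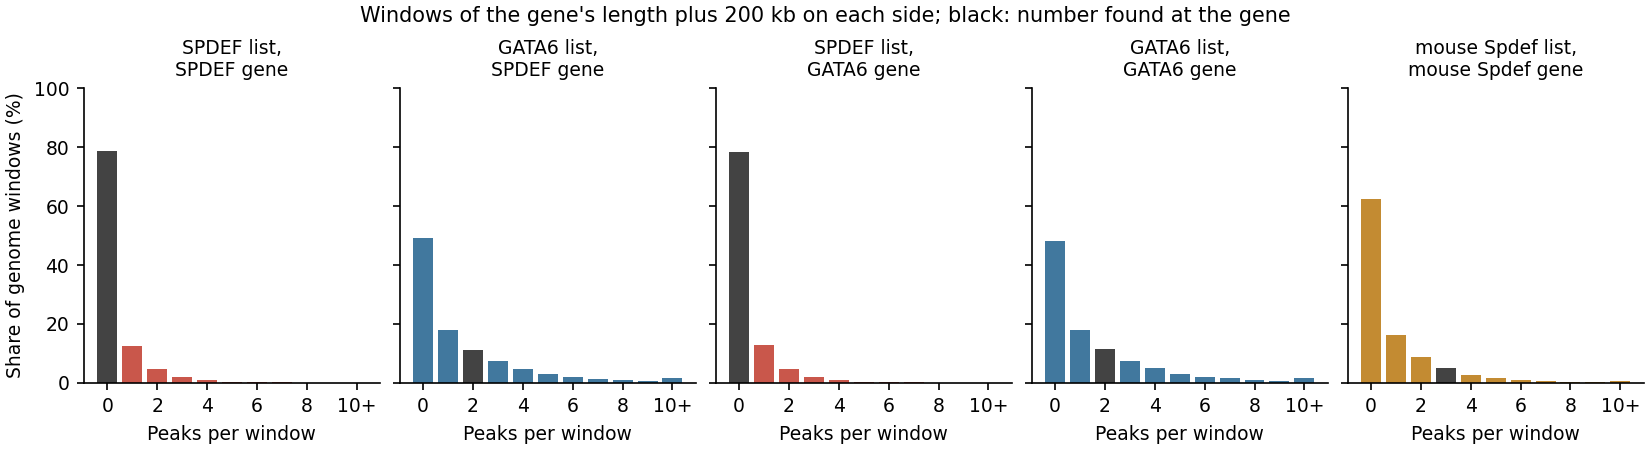
Share of all genome windows (%) by the number of peaks they hold, for windows of each gene's length plus 200 kb on each side, taken every 10 kb. The black bar is the number found at the gene. It stands at 0 for the SPDEF list at both human genes, at 2 for the GATA6 list at both, and at 3 for the mouse list.

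SPDEF had no peak at GATA6. The SPDEF list held 0 peaks within 200 kb of the gene, against 0.396 given by its density, so that up to 7.58 times the density is allowed by a count of 0 (upper limit of 3 counts). Against the list on chromosome 18 alone, which gives 0.0834 peaks, the limit is 36.0 times. Of 434 kb windows along the genome, 78.4% held 0 SPDEF peaks, and on chromosome 18 92.7% did. The whole chromosome had 15 SPDEF peaks. The nearest lay 1229 kb upstream of GATA6, inside the centromere band (18518397 to 18520280, 1884 bp). Of 34 kb spans, 60.1% along the genome and 36.4% on chromosome 18 had an SPDEF peak as near or nearer. Outside the centromere band the nearest was 1424 kb downstream (21206821 to 21207116, 296 bp). The peaks within GATA6 were thus 1229 and 1250.5 kb from any SPDEF peak.

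In the wider surroundings of GATA6, GATA6 peaks lay mostly on the downstream side. Within 1 Mb of the gene there were 15, against 7.14 given by the density (ratio 2.10, exact 95% Poisson interval 1.18 to 3.46), and 14.5% of genome windows of this length held as many or more. The window reached into the centromere band, which held 3 of the 15 peaks. With that band cut off, 12 peaks lay in 1783 kb, against 6.26 given by the density (ratio 1.92, exact 95% Poisson interval 0.990 to 3.35), so that the interval then included 1. As many or more were found in 17.8% of genome windows of that length. Against the mean of chromosome 18, the ratio of the uncut window was 3.08 (1.72 to 5.08). The cut window was not set against that mean. Of the 15, 10 lay downstream, at 263.2 to 904 kb, and 7 of these 10 were wider than the list's median of 346 bp. The widest of the 10 had 1264 bp, at 348.4 kb. The 3 upstream peaks, at 777 to 865 kb, were those in the centromere band. In gene order, the next protein-coding genes downstream are CTAGE1 and then RBBP8, a DNA end-resection factor. Upstream are MIB1, a ubiquitin ligase of Notch signalling, and ABHD3. Here too peaks were not assigned to the neighbouring genes, since the gene order is of another build. The same 2034 kb held 0 SPDEF peaks, as did 45.2% of genome windows of that length.

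In mouse, the Spdef gene itself was also without a peak of its own factor. The mouse list held 3 peaks within 200 kb. On the lower-coordinate side lay a pair 8.50 kb apart, at 157.9 kb from the gene (chromosome 17, 27555870 to 27556059, 190 bp) and at 166.6 kb (27547070 to 27547367, 298 bp). On the other side a single peak lay at 178.9 kb (27908942 to 27909200, 259 bp), 352.9 kb from its nearest neighbour. The next peak beyond the distance lay at 259.0 kb. The density of the list gives 0.903 peaks for the 416 kb window, so the ratio was 3.32 (exact 95% Poisson interval 0.685 to 9.71). As many peaks or more were found in 12.3% of mm10 windows and in 9.71% of those on chromosome 17. A peak as near as the nearest was found for 32.6% of 16 kb spans. Within 100 kb of the gene the count was 0, against 0.469 given by the density.

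Within 1 Mb of mouse Spdef there were 12 peaks, 7 on the lower-coordinate side and 5 on the other, against 4.38 given by the density (ratio 2.74, exact 95% Poisson interval 1.42 to 4.79). That number was reached by 9.23% of windows of 2016 kb. No source used here gives the strand of the mouse gene, so sides are given by coordinate. The human SPDEF list, at 2 peaks against 1.84 within 1 Mb of SPDEF (ratio 1.09, 0.131 to 3.92), and the mouse list have intervals that overlap. Against the mean of the own chromosome the ratios were 2.49 (0.302 to 9.0) for human SPDEF and 2.96 (1.53 to 5.17) for mouse Spdef. They come from different cells, constructs and list lengths, and the difference was not tested. In both species the nearest peak of the tagged factor lay more than 100 kb from the gene. Within 100 kb the density gives 0.201 peaks for human SPDEF and 0.469 for mouse Spdef, so a count of 0 is near the background.

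**Figure D3:**
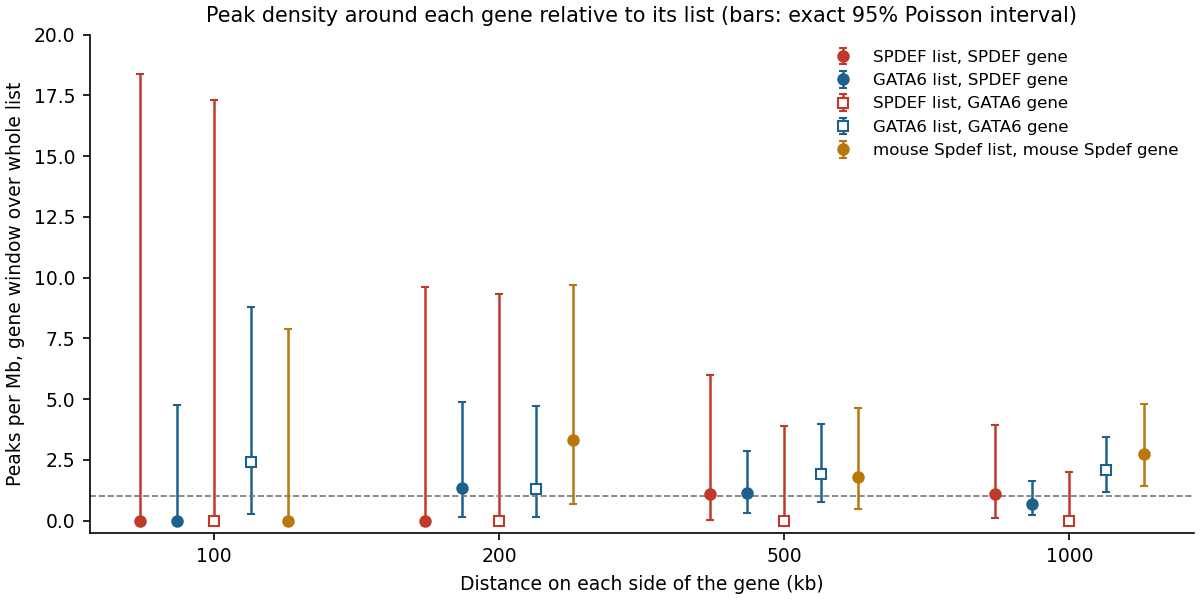
Peaks per Mb in a window around each gene divided by the mean of the whole list, for 100 to 1000 kb on each side, with exact 95% Poisson intervals that cover counting error only. The dashed line marks the mean of the list. At 200 kb all 5 intervals include 1, while at 1000 kb those of GATA6 at its own gene (1.18 to 3.46) and of mouse Spdef (1.42 to 4.79) lie above it. With the centromere band cut off, that of GATA6 (0.990 to 3.35) includes 1.

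The peaks near these genes were mostly narrow. Of the 4 GATA6 peaks, 3 were below the median width of their list (346 bp). The peak at 21.7 kb within GATA6 was the exception, at 400 bp and wider than or as wide as 57.7% of the list. The peak at GATA6's 5' end, at 255 bp, was as wide as or wider than 31.2%. The pair around SPDEF, at 247 and 222 bp, reached 29.0% and 21.0%. All 3 mouse peaks were below their median of 437 bp, the narrowest wider than or as wide as 9.28% of the list and the widest 26.5%. Width is not a score, and what it says of binding strength is not known from these lists.

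**Figure D4:**
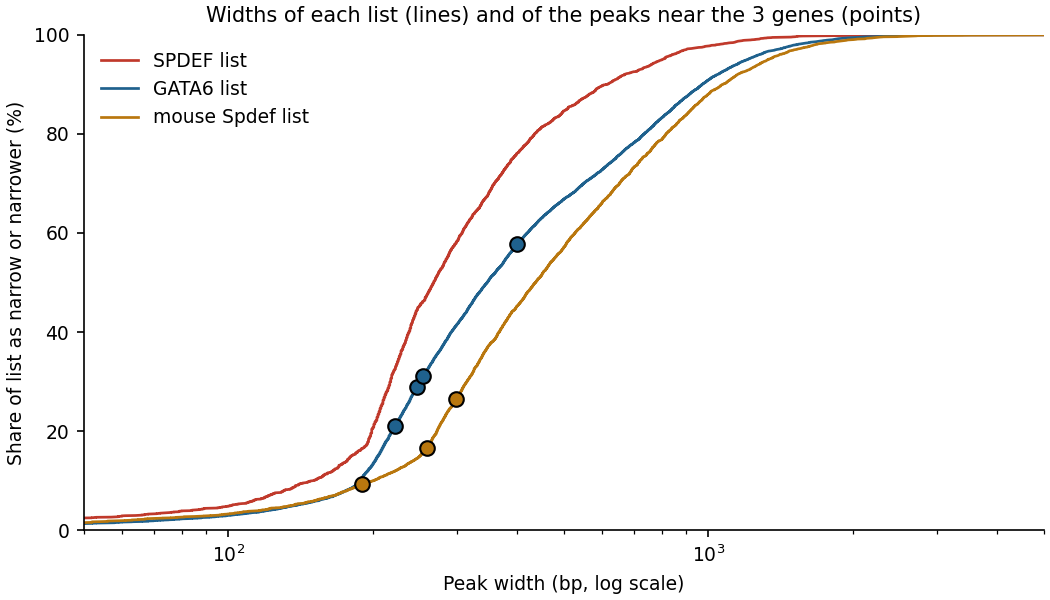
Cumulative share of each list (%) by peak width (bp, log axis), with points for the 4 GATA6 and 3 mouse Spdef peaks near the 3 genes. Of the 7 points, 6 lie below 50%, and the highest, at 57.7%, is the GATA6 peak of 400 bp inside GATA6.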

How the data were processed

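The authors deposited 3 peak lists, 1 per target, giving the chromosome, start and end of each peak and no other value. Tools recorded in the submitters' processing notes are MACS2 2.2.7.1, Bowtie2 2.4.4, deepTools and SAMtools 1.14, and builds are hg19 and mm10. The peak threshold, the control, and whether the replicates of a target were pooled before or after calling are not given in the sources used here. Signal of the H3K4me3 and IgG libraries was not used here.

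In each list 0 peaks ended past a chromosome of the named build. Starts were converted to count from 1. A member is a peak with an edge within 200 kb of a gene, the peaks and genes having been chosen with earlier results of these data known. All members are named. Expected counts are the list's mean density over the autosomes and X times the window length. Windows of the same length, every 10 kb outside centromere bands (none is listed for mm10), were all counted. They overlap, include unsequenced gaps and are not matched to gene density, so they describe and do not test. Windows with 1 Mb on each side were added after seeing the data. So were the share of spans with 2 or more GATA6 peaks and the 2 kb window at GATA6's 5' end. Intervals cover counting error and treat peaks as independent, although peaks cluster. For genes with 0 peaks, the planned share of windows with as many or more is all windows, so the share with 0 is given. Counting was checked against made-up peaks. Tools were Python 3.11.15, numpy 2.4.6, pandas 2.3.3, scipy 1.17.1 and matplotlib 3.10.9, with GenomeInfoDb 1.38.1 and circlize 0.4.16 in R 4.3.3 for chromosome lengths and bands. Sequences and gene order are from RefSeq, GRCh38.p14. The full genotype of the mouse line is not reported here.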

Additional observations from a re-analysis of the deposited data

How the results depend on the processing

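No paired analysis was possible because the lists carry no values per replicate, and for the same reason no library could be left out. Counts of 0 SPDEF peaks could not change when peaks were left out or zones shortened, so those settings say nothing of their stability, and the same holds for the overlap rules, which had 0 SPDEF peaks to work on. With only the wider 50% of each list, 0 GATA6 peaks were left near SPDEF (ratio 0). Near GATA6 1 was left, and the ratio to the shortened list stayed at 1.31. In mouse, 0 peaks were left near Spdef (ratio 0). The nearest peaks to SPDEF were then at 1565 kb for SPDEF and 1568 kb for GATA6, and the nearest mouse peak at 259 kb. These losses restate the widths, since 3 of the 4 GATA6 peaks and all 3 mouse peaks were below their list's median. Width is not a score, so this cut does not stand in for a stricter threshold. Within 50 kb and within 100 kb, the ratios of GATA6 at SPDEF and of mouse Spdef at Spdef were 0. These ratios thus moved from above to below 1, as did that of GATA6 at SPDEF within 1000 kb, at 0.705 against 1.36 within 200 kb. Longer zones did change the ratio of human SPDEF at its own gene. It was 0 within 200 kb, 1.08 within 500 kb (1 peak) and 1.09 within 1000 kb (2 peaks). At GATA6 the ratio of SPDEF stayed 0 out to 1000 kb. The ratio of GATA6 within 1 Mb of its own gene was 1.92 with the centromere band cut off, against 2.10, and its interval then included 1. Midpoints in place of edges, and leaving out peaks under 100 bp, changed none of the counts above 0. The ratios with the wider 50%, the cut at the centromere band and the looser rules for GATA6 peaks on SPDEF peaks were added after seeing the data. List length limits these results, since under 1 human SPDEF peak is expected in either 200 kb zone.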
